A study of Homo sapiens with 6 samples.

Results

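The 10 genes EGR1, EGR2, EGR3, NR4A1, NR4A2, NR4A3, IER2, IER3, KLF4 and KLF6 are early response genes outside the FOS and JUN families. They were taken by symbol from the 57773 genes of the count table. The table came from RNA sequencing of SW872, a human liposarcoma cell line grown in RPMI-1640 medium with fetal bovine serum. A group of 3 libraries came from cells given 18 μM Apatinib, a tyrosine kinase inhibitor of VEGFR-2, for 24 h, and 3 control libraries came from cells labelled as untreated. Cells of both groups were detached by digestion before RNA was taken up in Trizol. Whether the control cells received the drug's solvent was not given. The study's methods name 3 biological replicates per condition of this single line. All 10 genes had a row in the table, and 9 of them were among the 16290 genes with enough counts to be tested. EGR2 did not pass that filter.

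Early response genes are switched on within minutes of a growth factor, serum or stress stimulus, without the need for new protein. ERK signaling acting on serum response factor (SRF) and ELK proteins drives many of them, and CREB drives others. Their transcripts are short lived, so that their level follows recent signaling, and most encode transcription factors that act on later genes.

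Counts per library ran from 17043314 to 22067558. Levels are also given as CPM, the counts divided by a library size that was scaled with the TMM method. Defining mesenchymal transcripts were abundant, and the summed CPM of 8 such markers was 7642 to 8957 in the Apatinib group and 6459 to 6976 in the control group. The 6 adipocyte markers summed to 61.4 to 89.4 CPM. Most of this was PPARG, the master regulator of fat cell formation, at 50.0 to 64.2 CPM, and LPL, at 14.3, 23.5 and 17.1 CPM with Apatinib and 11.3, 10.9 and 8.57 CPM in the controls, was differentially expressed (log2 fold change 0.84, FDR = 0.0237; FDR = 0.0784 without control 1 and 0.0831 without control 2). FABP4 and ADIPOQ were at 0 counts in every library. CEBPA was also at 0 counts, although its deposited FPKM, a measure per transcript length and depth, lay between 0.0579 and 0.319. The 4 epithelial markers summed to at most 1.37 CPM, and the 3 endothelial markers with a row to between 2.71 and 4.41 CPM. Among the endothelial markers, CDH5 fell (log2 fold change -1.22, FDR = 0.0242) and VWF rose (1.52, FDR = 0.0386), both at no more than 3.03 CPM. Each lost its call in some of the fits without 1 library, with an FDR of up to 0.102 and 0.146. The 4 blood markers summed to at most 0.115 CPM, although CD68, at 0 or 1 count, had 1.79 to 11.8 FPKM, so that a count of 0 did not show absence. The counts of controls 1 and 2 differed least, with a chi-square of 2.27 per gene against 18.2 to 44.5 for the other pairs within a group, and control 3 was nearly as close to Apatinib replicate 3 (26.5) as to controls 1 and 2 (22.4 and 22.9). Apatinib replicate 2 stood apart in the genes described here, and the fold changes of the 9 tested genes are therefore given with and without it.

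Of the 9 tested early genes, 1 was differentially expressed. NR4A1 rose with Apatinib in each replicate, to 1.96 times the control mean. EGR1, EGR3 and KLF4 were several times higher in Apatinib replicate 2 than in any other library, and EGR1 and EGR3 lay near the control level in the other treated replicates. In CPM, NR4A3 was higher and NR4A2 lower in all 3 treated libraries than in any control library, but neither passed the test. Groups without overlap and higher with Apatinib were seen for 17.5% of all tested genes, and no share was at hand for the lower direction. IER2, IER3 and KLF6 differed little between the groups.

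A differentially expressed gene (DEG) had a false discovery rate (FDR) under 0.05 in edgeR's quasi-likelihood test and an absolute log2 fold change above 0.5. Over all tested genes, 1866 were DEGs (11.5%), of which 973 were higher with Apatinib (5.97%). The 1 DEG among 9 is thus a share close to that of all genes. Of the 9 genes, 8 had a positive log2 fold change, and their median was 0.97, against 0.00 over all tested genes. Without Apatinib replicate 2, 7 of the 9 were positive, that median was 0.15 and NR4A1 was again the 1 DEG, while 1493 genes were DEGs in all (8.91%) and 885 of them were higher with Apatinib (5.28%). Since whole cultures were measured, a larger share of expressing cells and more RNA per cell cannot be told apart for any of these genes.

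**Figure D1:**
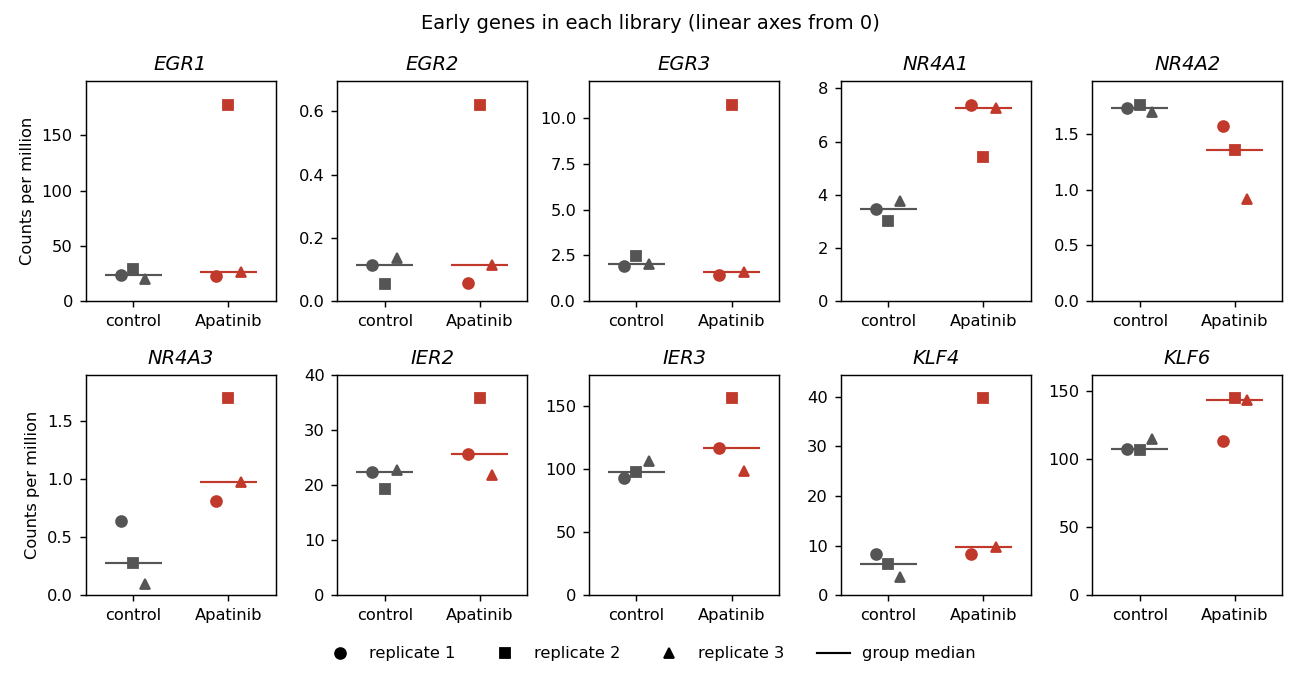
CPM (vertical axes, linear, from 0) of the 10 early genes in the 3 control and 3 Apatinib libraries. Each point is a library, its shape gives the replicate number and the line is the group median. Replicate 2 stands far above all other points for EGR1, EGR3 and KLF4. It is also the highest point for EGR2, but there it rests on 11 counts. For NR4A1 it is the lowest of the 3 treated points, all of which lie above the controls.

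EGR1, EGR2 and EGR3 encode zinc finger transcription factors that bind the same GC-rich sites. EGR1 gave 396 counts in Apatinib replicate 1, 3146 in replicate 2 and 457 in replicate 3. In controls 1, 2 and 3 it gave 406, 529 and 433 counts. Scaled to library size, EGR1 was at 23.0, 178 and 26.2 CPM with Apatinib and at 23.4, 29.1 and 19.8 CPM in the controls. Replicates 1 and 3 thus lay within the range of the controls, and the high mean of the treated group came from replicate 2 alone. The log2 fold change was 1.65 ± 0.618 (SE, 95% interval 0.30 to 3.0, FDR = 0.0978), and the groups overlapped. Without Apatinib replicate 2 it was 0.04 ± 0.170 (interval -0.34 to 0.42, FDR = 0.906).

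EGR3 was likewise highest in Apatinib replicate 2, at a lower level than EGR1. Apatinib replicates 1, 2 and 3 gave 25, 190 and 28 counts of it, against 33, 45 and 45 in controls 1, 2 and 3. Replicates 1 and 3 were below every control, and replicate 2 was above every control. With all libraries the log2 fold change was 1.10 (interval -0.27 to 2.47, FDR = 0.260), and it was -0.48 (interval -1.10 to 0.14, FDR = 0.263) without Apatinib replicate 2, so that its direction turned on that library.

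EGR2 was close to the detection limit. It gave 1, 11 and 2 counts with Apatinib and 2, 1 and 3 counts in the controls. The exact Poisson 95% interval, which covers counting error only, was 5.49 to 19.7 for the 11 counts and 0.619 to 8.77 for the 3 counts of control 3. The level in replicate 2 was 0.621 CPM, the highest of the 6 libraries, but its counts did not pass the filter of the reported fit.

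The sequence before the start of transcription is shown for EGR1 and EGR2, since EGR promoters are known for the CArG box, the element bound by SRF, and for KLF4 and NR4A1 for comparison. Each line is the 150 bases that end just before a start in RefSeq on build GRCh38.p14, a later build than the hg19 of the expression files, read 5′ to 3′ on the strand of the gene. Capitals mark CArG boxes and TGACG, the left part of the CREB site, on either strand.
EGR1, chr5:138465329-138465478 (plus strand): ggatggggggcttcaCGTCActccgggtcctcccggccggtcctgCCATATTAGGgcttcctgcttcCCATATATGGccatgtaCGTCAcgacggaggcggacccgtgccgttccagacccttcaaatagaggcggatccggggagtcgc
EGR2, chr10:62816367-62816516 (minus strand): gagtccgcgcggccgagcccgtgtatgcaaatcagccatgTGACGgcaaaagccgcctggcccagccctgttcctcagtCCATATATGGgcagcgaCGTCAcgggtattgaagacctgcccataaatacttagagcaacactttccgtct
KLF4, chr9:107489770-107489919 (minus strand): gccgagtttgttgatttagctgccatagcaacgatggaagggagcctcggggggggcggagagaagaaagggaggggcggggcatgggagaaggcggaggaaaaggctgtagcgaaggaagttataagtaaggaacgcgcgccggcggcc
NR4A1, chr12:52037565-52037714 (plus strand): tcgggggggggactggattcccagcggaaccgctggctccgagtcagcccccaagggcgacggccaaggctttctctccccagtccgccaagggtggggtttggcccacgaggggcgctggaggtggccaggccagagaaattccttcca
The EGR1 stretch held CArG boxes whose first bases were 105 and 83 bases before the start, and TGACG matches 135 and 66 bases before it. EGR2 has 3 listed starts, and the start shown had a CArG box 71 bases before it and TGACG matches at 110 and 54 bases. The KLF4 and NR4A1 stretches shown held neither motif.

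In all, 7 of the 10 genes matched the promoter table with 10 windows of 250 bases before to 50 bases after a start. A CArG box was in 2 of these 10 windows, those of EGR1 and EGR2, against 1.29% of all 35116 windows. TGACG was in 5 of the 10 windows, 1 each of EGR1, EGR2, IER2, KLF4 and NR4A3, against 24.6% of all windows. The full CREB site TGACGTCA was in none of the 10 (1.85% of all). The EGR site, searched as GCGTGGGCG and GCGGGGGCG, was in 1 of the 10, that of KLF6 (5.77% of all). The AP-1 site, TGACTCA or TGAGTCA, and the TATAAA box were in none (4.95% and 11.5% of all). Both strands were searched, and a full CREB site also counts as a TGACG match. These matches describe letters in a window, not binding.

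KLF4 and KLF6 encode Krüppel-like zinc finger factors, and KLF4 is best known as a reprogramming factor. KLF4 gave 143, 703 and 168 counts with Apatinib and 144, 115 and 79 counts in the controls, or 8.32, 39.7 and 9.62 CPM against 8.31, 6.32 and 3.62 CPM. All treated libraries were thus at or above the highest control, but replicate 1 exceeded control 1 by less than 0.1 CPM. The log2 fold change was 1.67 ± 0.525 (SE, interval 0.52 to 2.82) and narrowly failed the test (FDR = 0.0573). It was 0.58 without Apatinib replicate 2 (interval -0.06 to 1.22, FDR = 0.196). Leaving out Apatinib replicate 1 or 3 instead made KLF4 a DEG, with a log2 fold change of 2.03 (FDR = 0.0390) and 1.99 (FDR = 0.0415).

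KLF6, a growth-restraining factor that every library expressed strongly, gave 1943, 2558 and 2507 counts with Apatinib and 1852, 1944 and 2504 counts in the controls. These are 113, 144 and 144 CPM against 107, 107 and 115 CPM. Replicates 2 and 3 were above the controls, and replicate 1 was within their range. The log2 fold change of 0.29 (interval 0.01 to 0.57) did not pass the test (FDR = 0.155), and it was 0.23 without Apatinib replicate 2 (FDR = 0.252).

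**Figure D2:**
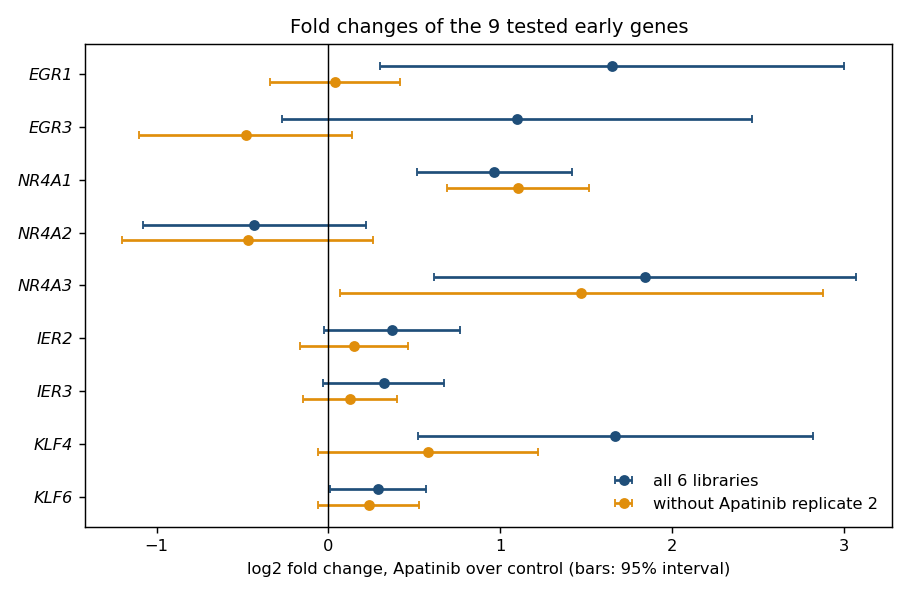
Log2 fold change of Apatinib over control (horizontal axis) for the 9 tested early genes, with 95% intervals, from all 6 libraries and from the 5 left without Apatinib replicate 2. EGR1 moves from 1.65 to 0.04 and EGR3 from 1.10 to -0.48, while NR4A1 stays at 0.97 and 1.10.

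The NR4A genes encode nuclear receptors that act without a known natural ligand. NR4A1, also called Nur77, was the early gene with the smallest p. It gave 127, 96 and 127 counts with Apatinib and 60, 55 and 82 counts in the controls, or 7.39, 5.42 and 7.27 CPM against 3.46, 3.02 and 3.76 CPM. Every treated library exceeded every control, and replicate 2 was the lowest of the treated libraries. The mean was 6.69 ± 1.10 CPM (SD, n = 3) with Apatinib and 3.41 ± 0.368 CPM (SD, n = 3) in the controls. Its log2 fold change was 0.97 ± 0.205 (SE, interval 0.52 to 1.42, FDR = 0.0152), and DESeq2 gave 0.97 (FDR = 0.00403). Without Apatinib replicate 2 it was 1.10 (FDR = 0.0112), and without both Apatinib replicate 2 and control 3, a choice made after seeing the data, it was 1.18 (FDR = 0.00102). The call was lost without Apatinib replicate 1 (FDR = 0.0513), control 1 (FDR = 0.0760) or control 2 (FDR = 0.0901), and with controls 1 and 2 summed into 1 library (FDR = 0.0734), while the log2 fold change stayed between 0.88 and 1.10 whichever library was left out.

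NR4A3 was much lower. It gave 14, 30 and 17 counts with Apatinib and 11, 5 and 2 counts in the controls, or 0.814, 1.69 and 0.973 CPM against 0.635, 0.275 and 0.0916 CPM. All 3 treated libraries were above all 3 controls. The treated libraries carried NR4A3 past the low-count filter. It was not tested where at least 10 counts in every library were required. Its log2 fold change of 1.84 ± 0.561 (SE, interval 0.61 to 3.07) did not pass the test (FDR = 0.0518). The log2 fold change was 1.47 without Apatinib replicate 2 (FDR = 0.144), 2.67 without control 1 (FDR = 0.0595) and 1.35 without control 3 (FDR = 0.104). The counts of Apatinib replicate 1 (exact Poisson interval 7.65 to 23.5) and control 1 (5.49 to 19.7) overlapped within counting error.

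NR4A2 had a log2 fold change of the other sign. It gave 27, 24 and 16 counts with Apatinib and 30, 32 and 37 counts in the controls. In CPM, the treated libraries were at 1.57, 1.35 and 0.916, all below the controls at 1.73, 1.76 and 1.69. The log2 fold change of -0.43 (interval -1.08 to 0.22) did not pass the test (FDR = 0.354), and it was -0.47 without Apatinib replicate 2 (FDR = 0.353). The log2 fold changes of the 3 NR4A genes thus differed in sign, but only that of NR4A1 passed the test. Differences between the 3 genes were not tested. Groups without overlap and higher with Apatinib were seen for 3 of the 9 tested early genes, namely KLF4, NR4A1 and NR4A3, and for 17.5% of all tested genes. NR4A3 was tested because of its counts in the treated libraries, so that its lack of overlap is no support. These statements hold on the CPM scale. In the deposited FPKM, NR4A1 had no overlap either, but KLF4 overlapped (2.157 in Apatinib replicate 1 against 2.180 in control 1), as did NR4A3 (0.0707 against 0.0726), while KLF6 did not (at least 19.0 against at most 18.4). No share over all genes was at hand for groups without overlap in FPKM. The same holds for groups without overlap and lower with Apatinib in CPM, as for NR4A2.

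The 3 genes of all others whose log2 CPM profile over the 6 libraries, centred on the control mean, was nearest to that of NR4A1 were KCNN3, FAM65B and MEGF6. Their mean absolute difference from NR4A1 was 0.0560, 0.0578 and 0.0646 on the log2 scale. Their log2 fold changes were 0.95, 1.04 and 0.94. Each was a DEG, and the likeness is a description over 6 libraries.

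IER2 and IER3 encode small early response proteins that are not of the zinc finger or receptor families, and IER3 acts in cell survival. IER2 gave 442, 634 and 381 counts with Apatinib and 387, 350 and 498 counts in the controls. In CPM these were 25.7, 35.8 and 21.8 against 22.3, 19.2 and 22.8 CPM, so that replicate 2 was the highest library and replicate 3 lay within the controls. This gave a log2 fold change of 0.37 (interval -0.03 to 0.77, FDR = 0.192). IER3 gave 2009, 2763 and 1722 counts against 1611, 1776 and 2330, or 117, 156 and 98.6 CPM against 93.0, 97.7 and 107 CPM. Its log2 fold change was 0.32 (interval -0.03 to 0.67, FDR = 0.203), and again replicate 2 was highest. Without Apatinib replicate 2 these log2 fold changes were 0.15 and 0.12. The intervals of both genes end below a doubling of the level.

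The levels of different genes can be compared only per length, on the FPKM scale of the deposited values. In the controls IER3 was highest at 73.5 ± 5.02 FPKM (SD, n = 3), followed by IER2 at 20.6 ± 1.69, KLF6 at 18.2 ± 0.149 and EGR1 at 5.36 ± 1.04 FPKM. These 4 did not overlap with each other. KLF4 at 1.54 ± 0.642 and NR4A1 at 1.43 ± 0.0887 FPKM overlapped, as did EGR3 at 0.366 ± 0.0516 with NR4A2 at 0.350 ± 0.0194 FPKM, and NR4A3 at 0.0420 with EGR2 at 0.0112 FPKM. With Apatinib, EGR1 reached 40.3 FPKM in replicate 2, above KLF6 (25.3) and IER2 (35.5) in that library, while in replicates 1 and 3 it was at 4.93 and 5.84 FPKM, below both. Exons of NR4A1, IER2, IER3 and EGR3 overlap an annotated gene on the other strand (GENCODE release 29), and whether reads were counted by strand is not given, so that reads of such a pair may not be separable.

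The share of Apatinib replicate 2 in these values can be read as a ratio. Relative to the mean of Apatinib replicates 1 and 3, replicate 2 held 7.22 times as much EGR1, 7.19 times as much EGR2, 7.02 times as much EGR3 and 4.43 times as much KLF4. For EGR2 this rests on 11 counts against 1 and 2 counts. The ratio was 1.89 for NR4A3, 1.51 for IER2, 1.45 for IER3, 1.13 for KLF6 and 1.09 for NR4A2. NR4A1 alone was lower in replicate 2, at 0.739 times. The 10 genes thus did not move together in that library.

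Against the highest of the other 5 libraries, replicate 2 was 6.10 times as high for EGR1, 4.33 times for EGR3 and 4.13 times for KLF4. These were the genes of rank 2, 6 and 7 of the 16290 tested. Replicate 2 was more than 2 times above every other library for 3 of the 9 tested early genes, against 99 of all tested genes (0.608%). The same count was 7 for Apatinib replicate 1, 3 for Apatinib replicate 3, and 11, 5 and 0 for controls 1, 2 and 3. The share of counts from mitochondrial genes in replicate 2 was 5.16%, within the range of the 6 libraries (4.47% to 5.69%).

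**Figure D3:**
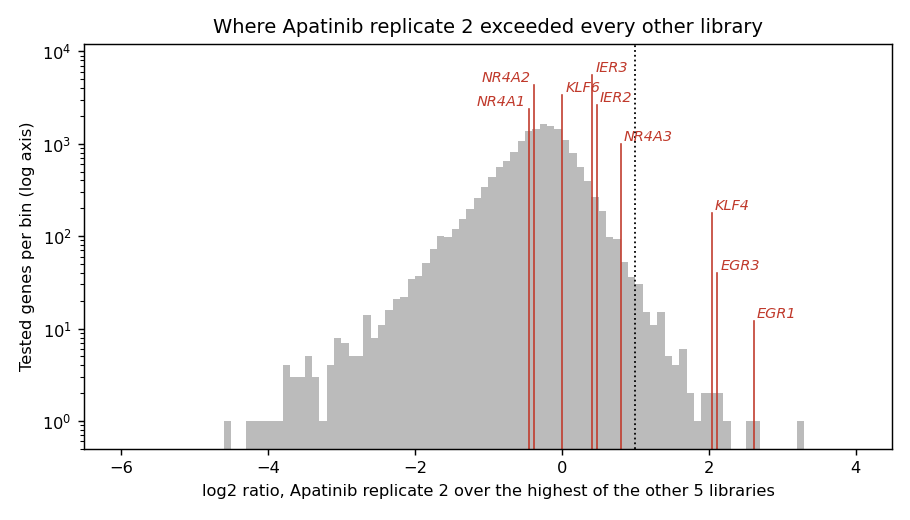
Log2 ratio of Apatinib replicate 2 to the highest of the other 5 libraries (horizontal axis) over the tested genes, as a histogram with a log vertical axis. Red lines mark the 9 tested early genes and the dotted line a ratio of 2. KLF4, EGR3 and EGR1 lie beyond it, and NR4A1 lies to the left of 0.

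Heat shock transcripts also set replicate 2 apart. The summed CPM of 8 heat shock genes was 3226, 1680 and 3375 with Apatinib and 4235, 4429 and 4227 in the controls, so that replicate 2 was the lowest library. Of these 8 genes, HSPH1 (log2 fold change -0.93, FDR = 0.0101) and HSP90AA1 (-0.89, FDR = 0.0137), both chaperones, fell as DEGs. Among all 16290 tested genes, 893 were DEGs that fell. The median of the list was -0.25 with replicate 2 and 0.11 without it. HSPA8, named after its values were seen, was at 1289, 372 and 1259 CPM with Apatinib and at least 1457 CPM in the controls. It was not a DEG (FDR = 0.203). BAG3 was not lowest in replicate 2 (47.4 CPM against 43.1 CPM in control 2). HSPH1 and HSP90AA1 were below every control in each treated library, and stayed DEGs without replicate 2 (FDR = 0.0200 and 0.0241). Both calls were lost without control 1 (FDR = 0.0537 and 0.0673) or control 2 (FDR = 0.0526 and 0.0711). The part of handling or stress in the EGR1, EGR3 and KLF4 values of replicate 2 was not tested.

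Relatives of the 10 genes were described with the same fit. Of 13 tested relatives in the EGR, IER and KLF families, 1 was a DEG, where 11.5% of all tested genes were DEGs. The median log2 fold change of the relatives was 0.17, or 0.06 without Apatinib replicate 2. In the fit without that library, IER5 rose and KLF10 fell as DEGs, where 8.91% of all tested genes were DEGs. KLF15, a glucocorticoid-responsive factor, rose by 1.72 on the log2 scale (FDR = 0.0240), from 1.56, 0.935 and 0.870 CPM in the controls to 2.44, 6.15 and 2.40 CPM with Apatinib. It was 1.13 without Apatinib replicate 2 (FDR = 0.0545), 2.01 without control 1 (FDR = 0.0552) and 1.61 without control 2 (FDR = 0.0973), so that the call was lost without any of these libraries. IER5 and KLF10 had log2 fold changes of 0.57 (FDR = 0.0214) and -0.60 (FDR = 0.0143) without replicate 2, and they were named after their values were seen.

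None of the tested proteins that work with the EGR and NR4A factors was a DEG with all libraries. NAB1 and NAB2 bind EGR factors as co-repressors, and NAB2 is itself induced by EGR1. NAB2 was at 42.1, 55.9 and 26.8 CPM with Apatinib and at 26.4, 28.4 and 32.8 CPM in the controls (log2 fold change 0.51, FDR = 0.144). Its highest value was in Apatinib replicate 2, where EGR1 was highest. NAB2 was also above every control in Apatinib replicate 1, where EGR1 was within the range of the controls. Whether EGR1 acted on NAB2 was not tested. The log2 fold change of NAB2 was 0.24 without Apatinib replicate 2 (FDR = 0.411). It was 0.75 without Apatinib replicate 3, where NAB2 was a DEG (FDR = 0.0247). NAB1 had a log2 fold change of -0.09 (FDR = 0.741). RXRA and RXRB, receptors of the family that pairs with NR4A1 and NR4A2, had log2 fold changes of 0.06 and 0.20 (FDR = 0.802 and 0.314). In edgeR and in DESeq2, 0 of these 4 tested genes were DEGs, and 1 had an unadjusted p under 0.05, as did 30.6% of all tested genes.

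Among 12 tested SRF, ELK and CREB factors, which act upstream of early genes, 0 were DEGs in edgeR or DESeq2, 5 had an unadjusted p under 0.05 (30.6% of all tested genes did), and the median log2 fold change was -0.08. SRF itself was higher in every treated library, at 63.6, 57.2 and 58.3 CPM against 41.6, 41.7 and 50.3 CPM. Its log2 fold change of 0.42 did not pass the test with all libraries (FDR = 0.0502). Without control 3, SRF (0.52, FDR = 0.0248) and CREB1 (-0.66, FDR = 0.0135) were DEGs. Transcript levels of these factors do not measure their phosphorylation.

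Of 8 tested genes that textbooks name as EGR1 targets, 3 were DEGs and all 3 rose, where 5.97% of all tested genes were DEGs that rose. Among them were PDGFB and PDGFA, which encode the chains of platelet-derived growth factor. PDGFB was at 8.03, 5.93 and 4.98 CPM with Apatinib and at 1.15, 0.825 and 0.687 CPM in the controls (log2 fold change 2.83, FDR = 0.000702). Its highest level was in replicate 1, where EGR1 was at the control level. PDGFA was at 81.7, 107 and 68.2 CPM against 46.8, 45.7 and 48.2 CPM (0.87, FDR = 0.00959). The highest level of PDGFA was in replicate 2, where EGR1 was highest too. PDGFB and PDGFA were DEGs without Apatinib replicate 2 too, where EGR1 had a log2 fold change of 0.04, with log2 fold changes of 2.88 and 0.68. PDGFA lost its call without control 1 (FDR = 0.0535) or control 2 (FDR = 0.0530). Whether EGR1 acted on either PDGF gene was not tested.

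The AP-1 genes, the other main family of early genes, were set beside these. Of 8 tested AP-1 genes, 4 were DEGs and all 4 rose, against 5.97% of all tested genes, and the median log2 fold change was 0.85, or 0.54 without Apatinib replicate 2, where 4 were again DEGs. FOS was at 14.0, 13.7 and 26.8 CPM with Apatinib against 1.62, 2.09 and 1.97 CPM (log2 fold change 3.25, FDR = 0.000315), and FOSB at 3.55, 5.25 and 9.73 CPM against 0.520, 0.330 and 0.458 CPM (3.80, FDR = 0.00148). Both were highest in replicate 3, where EGR1 was within the range of the controls and EGR3 below it. FOSL1 (0.84, FDR = 0.00709) and JUND (0.87, FDR = 0.00845) were the other DEGs. FOSL1 lost its call without control 1 (FDR = 0.0523), and JUND without control 1 (FDR = 0.0564) or control 2 (FDR = 0.0508). ATF3, a stress-induced factor, was at 5.24, 24.1 and 3.49 CPM against 5.08, 5.94 and 4.72 CPM (1.06, FDR = 0.216), and so was high in replicate 2 only, as EGR1 was.

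A further list held 20 immediate and delayed early genes of other kinds. All 20 had a positive log2 fold change with all libraries, as did 50.3% of all tested genes, and their median was 0.52. Of the 20, 3 were DEGs, all higher, where 5.97% of all tested genes were DEGs that rose. RHOB, a small GTPase, had a log2 fold change of 1.18 (FDR = 0.00238), GADD45B, a stress sensor, of 1.40 (FDR = 0.00569) and GEM, a GTP-binding protein, of 0.83 (FDR = 0.0264). Without Apatinib replicate 2 the median was 0.23, 16 of the 20 were positive, and GEM narrowly lost its call (FDR = 0.0504), as it did without control 1 (FDR = 0.131) or control 2 (FDR = 0.0530). In replicate 2, PPP1R15A, MAFF and CSRNP1 of this list were more than 2 times above every other library, chosen for naming after their values were seen. PPP1R15A was a DEG without Apatinib replicate 3 (FDR = 0.0238) or control 3 (FDR = 0.0426).

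**Figure D4:**
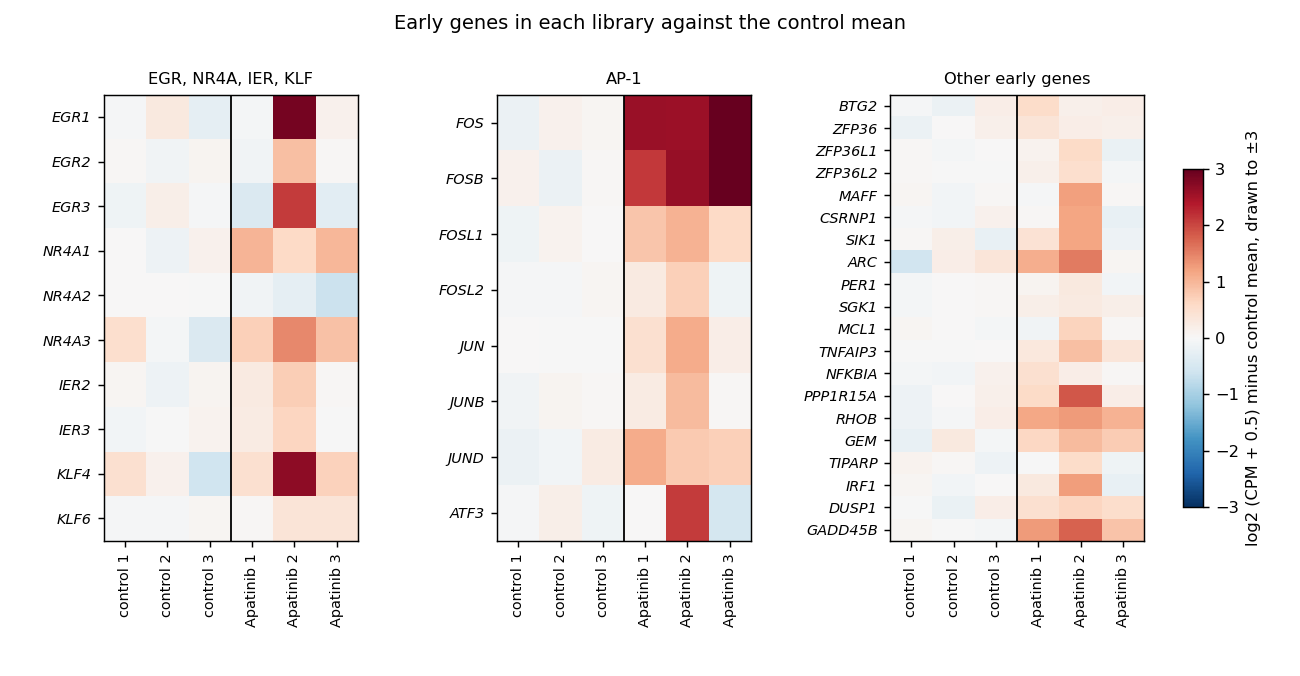
Log2 (CPM + 0.5) minus the control mean for each library (columns) and the 10 early genes, 8 AP-1 genes and 20 other early genes (rows), with colours drawn to ±3. FOS and FOSB are raised in all 3 Apatinib libraries, while EGR1, EGR3, KLF4 and ATF3 stand out in replicate 2.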

How the data were processed

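RNA was measured in 3 Apatinib and 3 control libraries of SW872 cells, grouped by the treatment label. The authors deposited a table of whole-number gene counts, not normalized, and FPKM values per library. Per the submitters' processing notes, STAR 2.7.1a and build hg19 were used, and the program that counted reads is not given in the sources used here. A single column (1) inside the FPKM values of Apatinib replicate 1, headed with a control's label, was not used.

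The counts were fitted with edgeR 4.0.16 under R 4.3.3 (filterByExpr, TMM, quasi-likelihood F test, Benjamini-Hochberg over 16290 genes). DEGs had an FDR under 0.05 and an absolute log2 fold change above 0.5, the limits of the study, which used DESeq2. DESeq2 1.42.0, limma 3.58.1 on log2 FPKM (pseudocounts 1 and 0.1, and mean FPKM above 0.5) and fits with other scalings, filters and sets of libraries were also run. The fit was tested on simulated data in which every gene had the same spread between replicates and no library stood apart. That test does not cover a library such as Apatinib replicate 2.

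All 10 genes are named. Of each list, DEGs are named, at most the 4 with the smallest p, except a gene that is not reported here, and a list gene set directly beside a member may be named. For the member with the smallest p, the 3 genes with the most similar profile are named. The 10 genes and the lists were chosen with earlier results of these data known. Replicate numbers are not stated to pair samples. Promoters came from RefSeq (GRCh38.p14). Intervals on counts cover counting error only.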

Additional observations from a re-analysis of the deposited data

How the results depend on the processing

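EGR2, NR4A2 and NR4A3 rest on few counts, at most 37 in a library, and every comparison on 3 libraries a group. IER2, IER3, KLF6 and NR4A2 kept their direction and their side of the threshold under all alternatives in which they were tested. NR4A1 kept its direction in 18 of 18 and lost its call in 6 of 18. The number of DEGs among the early genes, 1 with all libraries, went from 0 to 2 when a library was left out, that of all genes from 275 to 2594 and that over the lists of relatives, partners, upstream factors, EGR1 targets and other early genes, without AP-1 and heat shock genes, from 4 to 13 (1866 and 7 with all libraries). Leaving out control 1 or 2, in edgeR, gave 0 DEGs among the early genes and 4 of 9 at an unadjusted p under 0.05 (20.1% and 19.6% of all genes). Over the fits without 1 library, the log2 fold change of EGR3 ran from -0.48, without Apatinib replicate 2, to 1.52, and EGR1 and EGR3 were at -0.085 and -0.51 without Apatinib 2 and control 3, a setting chosen after seeing the data that gave 3391 DEGs in all and 17 on these lists. With controls 1 and 2 summed, edgeR gave 0, 292 and 4 DEGs among the early genes, all genes and the lists, with 4 of 9 early genes at an unadjusted p under 0.05 (20.4% of all genes). With glmTreat in edgeR they were 0, 74 and 3, again with 4 of 9 at an unadjusted p under 0.05 (9.28% of all genes). In limma on log2(FPKM + 1) and log2(FPKM + 0.1), 796 and 810 of all genes were DEGs, and without a filter 0, 9 and 0, with 3 of 10 early genes at an unadjusted p under 0.05 (15.4% of all genes). Without a filter on low counts, edgeR called 5 of 10 early genes, 2559 of all 32596 genes and 15 list genes. The replicate block gave 4 early genes, 2215 DEGs in all and 10 on the lists, but the numbers are not stated to pair samples. The deviations of same-numbered libraries from their group means correlated at -0.26, 0.08 and -0.22. With 3 libraries a group, these values cannot decide whether samples were paired. In these last settings, no filter and replicate block, the estimated prior degrees of freedom were infinite, so that a gene's own spread between replicates carried no weight, whereas the median was 7.51 in the reported fit. EGR1 (FDR = 1.53e-22 without a filter, 7.95e-05 with the block) and KLF4 (3.27e-15 and 7.12e-07) were called there, although their high level was in 1 library. NR4A3 (0.00373 and 0.00694) was called in both settings too, and EGR3 (0.000577) without a filter.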

Other observations

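Apatinib replicate 2 exceeded every other library more than 4 times in 8 of the tested genes, and no other library did so in any tested gene. These 8 genes, chosen for naming after their values were seen, were CLDN1, EGR1, INHBE, ULBP1, RP11-514D23.3, EGR3, KLF4 and ATF3. CLDN1, a tight junction protein, gave 6, 99 and 10 counts with Apatinib and 4, 11 and 1 counts in the controls. INHBE, an activin subunit, gave 22, 137 and 10 counts with Apatinib and 16, 13 and 14 counts in the controls. ULBP1, a ligand of the natural killer cell receptor NKG2D, gave 13, 69 and 9 counts against 13, 15 and 7 counts. TRIB3 and DDIT3, genes of the integrated stress response, were at 2.55 and 2.69 times the highest other library in replicate 2. They were likewise picked after their values were seen.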
